A study of Mus musculus with 8 samples.

Results

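The regions described here are the places in the mouse genome where Flag CUT&Tag called a peak for Oct4, either as the native factor or as the fusion Oct4BiD, in mouse embryonic fibroblasts (MEFs) on day 3 of reprogramming. CUT&Tag is an assay in which an antibody, here against the Flag epitope on the delivered factor, brings the transposase Tn5 to chromatin, so that DNA around the bound protein is cut, tagged and sequenced. Peaks of the 2 Oct4 libraries that overlapped by at least 1 bp were merged into 108429 regions, against 306466 regions when the peaks of all 8 libraries of the series were merged in the same way. Of the Oct4 regions, 39604 held a peak of both forms (shared, 36.5%), 54098 only a peak of Oct4BiD (49.9%) and 14727 only a peak of native Oct4 (13.6%). These 3 shares follow from the rule that made the classes and are a description.

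The Oct4BiD group is the library of MEFs that received Oct4 fused to BiD, a stretch of the protein SS18 that contacts BRG1, and the native group is the library of MEFs that received Oct4 without it. Both carry the Flag tag and, per the study's methods, were made in OG2 MEFs, taken from embryos of either sex and infected with retroviral vectors in the medium iCD3. The titles of the libraries do not name the factors, if any, that these MEFs received beside Oct4. Each group holds 1 library, so no difference between the forms below has a replicate behind it, and every interval covers counting error over regions only. Sequencing depth is unknown from the peak lists. The study's reporting summary lists more read pairs for native Oct4 than for Oct4BiD, although the native list holds 54794 peaks and the Oct4BiD list 93978.

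Oct4, encoded by Pou5f1, is a transcription factor of the POU family and a core regulator of pluripotency. Its DNA-binding part consists of a POU-specific domain and a POU homeodomain joined by a linker. On the octamer ATGCAAAT, the POU-specific domain reads the first 4 bases, ATGC, and the homeodomain reads the rest. BRG1 (Smarca4) is an ATPase of the BAF complexes, which use the energy of ATP to move and evict nucleosomes, and SS18 is a subunit of these complexes.

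Sequences at the summits are shown first, since the classes differed in the sites they hold. The summit is the position of a peak with most tags. The first set shows strong Oct4BiD-only regions with an octamer close to the summit. Each sequence runs 5′ to 3′ on the plus strand of GRCm38 (mm10), 40 bp to either side of the summit, with the octamer or its reverse complement in capitals.
Oct4BiD only, 87.5 kb from the nearest start site, of Shroom4, intergenic, chrX:6664788-6664868: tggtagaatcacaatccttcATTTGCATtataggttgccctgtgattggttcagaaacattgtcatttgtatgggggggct
Oct4BiD only, intron of Osmr, chr15:6818996-6819076: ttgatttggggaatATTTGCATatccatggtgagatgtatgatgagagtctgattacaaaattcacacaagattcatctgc
Oct4BiD only, 43.9 kb from the start of Myl10, intergenic, chr5:136649224-136649304: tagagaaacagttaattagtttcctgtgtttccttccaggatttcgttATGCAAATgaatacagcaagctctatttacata

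The second set shows native-only regions with the site ATGCACAT, called the CA site here, in capitals on either strand. None of the 3 windows holds a base that the assembly marks as repeat or low-complexity sequence (soft-masked). In this they are not typical: of 1852 native-only regions with a CA site within 50 bp of the summit, 251 had a window without such a base.
Native only, 23.8 kb from the start of Gm48371, intergenic, chr14:9493285-9493365: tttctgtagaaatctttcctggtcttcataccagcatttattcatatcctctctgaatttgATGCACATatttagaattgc
Native only, intron of Scn9a, 3 matches, chr2:66605502-66605582: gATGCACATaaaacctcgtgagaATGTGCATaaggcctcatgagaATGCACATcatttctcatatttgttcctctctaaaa
Native only, intron of Prkca, chr11:108092432-108092512: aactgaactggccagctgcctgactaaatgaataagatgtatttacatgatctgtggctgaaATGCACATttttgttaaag

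The third set shows the palindrome ATGCGCAT, in which ATGC is followed directly by its own reverse complement. It stood at the summit of the highest-scoring native-only region and of strong shared regions.
Native only, intron of Gm15802, 0.855 kb from the start of Igsf11, chr16:38891776-38891856: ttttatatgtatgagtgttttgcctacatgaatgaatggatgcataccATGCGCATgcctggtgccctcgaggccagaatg
Shared, intron of Col5a2, chr1:45443323-45443403: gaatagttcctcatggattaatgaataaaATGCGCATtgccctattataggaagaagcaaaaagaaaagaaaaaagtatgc

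The octamer was found within 50 bp of the summit in 11.6% of Oct4BiD-only regions (95% interval 11.3 to 11.9%), in 7.19% of shared regions (6.94 to 7.45%) and in 1.71% of native-only regions (1.502 to 1.93%). In flanking windows of equal width, moved from the summit by 500 bp in each direction, the share was 0.629%, 0.634% and 0.625%, so the 3 classes lay in surroundings with like octamer shares. The enrichment of the summit over these flanks was 18.4 in Oct4BiD-only, 11.3 in shared and 2.73 in native-only regions. On the log2 scale, the enrichment was 2.76 ± 0.15 (counting SE) higher in Oct4BiD-only than in native-only regions. The difference was 2.87 ± 0.25 in the windows without a soft-masked base, and 2.22 ± 0.19 when only the 20000 highest-scoring peaks of each list were used. The octamer variant ATGCTAAT followed the same order, with 4.19% of Oct4BiD-only, 2.60% of shared and 0.537% of native-only regions.

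The CA site took the opposite order. It shares its first 4 bases with the octamer and was chosen after the sequences at the summits had been counted, as were the palindrome and the repeat TGTGTGTG. It was found in 12.6% of native-only regions (12.0 to 13.1%), in 7.30% of shared regions (7.05 to 7.56%) and in 2.68% of Oct4BiD-only regions (2.55 to 2.82%). The flank shares were 1.06%, 0.835% and 0.659%. Against these flanks the enrichment was 11.8, 8.75 and 4.07, and the log2 ratio of Oct4BiD only over native only was -1.54 ± 0.11.

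Repeats moved with this site. The median share of soft-masked bases in the summit window was 20.8% in native-only, 4.95% in Oct4BiD-only and 0% in shared regions, and 7.57% of native-only windows were wholly masked, against 2.19% and 2.71%. The TG repeat TGTGTGTG, whose letters overlap part of the CA site's reverse complement, was found in 14.9% of native-only, 6.57% of Oct4BiD-only and 8.11% of shared regions. Among the 5877 native-only windows without a soft-masked base, the CA site was found in 4.27% (3.77 to 4.82%), against 1.26% (1.13 to 1.41%) of 25965 Oct4BiD-only and 3.05% of 19817 shared windows. There the log2 ratio was -0.91 ± 0.19, so the order of the single-form classes was kept and the difference was smaller. The enrichment over the flanks was 3.77 in native-only, 3.92 in shared and 2.01 in Oct4BiD-only windows. By this measure native-only windows no longer stood above shared ones. For the TA site, ATGCATAT, masking changed the result. All windows gave 6.77% for native only, 5.50% for Oct4BiD only and 8.004% for shared, with a log2 ratio of 0.30 ± 0.12. Windows without a masked base gave 1.63%, 3.19% and 3.37%, with a log2 ratio of 1.53 ± 0.23.

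**Figure D1:**
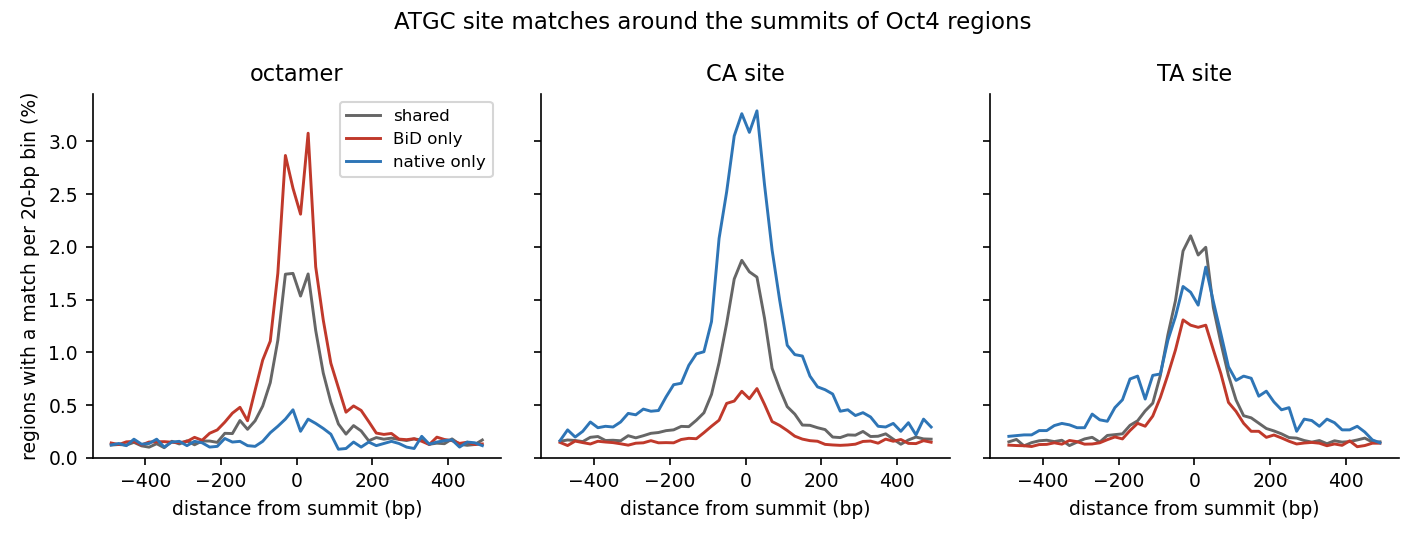
Share of regions (y axis, %) with a match to the octamer, the CA site or the TA site in 20-bp bins of distance from the summit (x axis, bp), as 1 line per class. The octamer line of Oct4BiD-only regions reaches 3.08% and that of native-only regions 0.455%, whereas for the CA site native-only regions reach 3.29% and Oct4BiD-only regions 0.656%.

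How close the matches lay to the summits differed by class. Among regions with an octamer within 500 bp, the median distance of the nearest octamer from the summit was 50.5 bp in Oct4BiD-only, 56.5 bp in shared and 191.5 bp in native-only regions. For the CA site the medians were 122.5 bp, 59.5 bp and 56.5 bp. The profile of matches by distance from the summit shows the same exchange of the leading class between the octamer and the CA site.

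The palindrome ATGCGCAT was rare and the most enriched of the sites: it was found in 1.44% of shared, 0.776% of Oct4BiD-only and 0.931% of native-only regions, with enrichments of 28.6, 46.7 and 54.8 over flanks that held only 40, 18 and 5 matches. Its log2 ratio between the single-form classes was -0.23 ± 0.74, so no difference could be shown at these counts. The sites ATGCAAAT, ATGCTAAT, ATGCATAT, ATGCACAT and ATGCGCAT share the half-site ATGC, and a window can hold more than 1 of them, also as overlapping matches on opposite strands. At least 1 of the 5 was found in 23.3% of Oct4BiD-only regions (22.9 to 23.6%), 23.4% of shared regions (23.0 to 23.9%) and 19.7% of native-only regions (19.1 to 20.4%). Over all windows, the classes thus differed less in how many held a site of this set than in which one they held. The set as a whole was not counted in windows without a soft-masked base, and this does not extend to them. There the octamer alone was found in 11.7% of Oct4BiD-only windows. The most frequent of these sites in native-only windows, the CA site, was found in 4.27%. The TA site was found in 1.63% of them, the octamer in 1.36%, the palindrome in 0.817% and the octamer variant in 0.510%. Even added together, these native-only shares stay below that of the octamer alone in Oct4BiD-only windows. Without soft-masked bases the single-form classes thus also differed in how many windows held a site. Both the octamer and the CA site stood in the same window in 0.214% of Oct4BiD-only, 0.442% of shared and 0.238% of native-only regions.

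All sequences of 8 bases that open with ATGC were counted in the same windows. In Oct4BiD-only regions the most frequent after the octamer were ATGCATAT, ATGCTAAT and ATGCAAAA, with 5.50%, 4.19% and 3.87%. In native-only regions they were ATGCACAT with 12.6%, ATGCACAC with 9.82%, ATGCATGT with 9.48% and ATGCATAT with 6.77%, and the octamer was not among the first 10. Shared regions led with ATGCATAT, ATGCACAT and ATGCAAAT, at 8.004%, 7.30% and 7.19%. The half-site ATGC itself occurred 1.98 times per window in native-only, 1.81 times in shared and 1.47 times in Oct4BiD-only regions, against 0.748, 0.704 and 0.696 in the flanks. Pairs of half-sites that faced each other (ATGC, then GCAT) with 2 bases between them were found in 3.10% of native-only regions and with 6 bases in 2.60%. With 1 and 3 bases between them the shares were 0.326% and 0.387%. In the flanks, 2 bases gave 0.251% and 1 base 0.0917%. Higher shares were not limited to 2 and 6 bases: 4, 8, 10 and 12 bases gave 1.71%, 1.78%, 2.06% and 1.42%. Odd spacings of 5, 7, 9 and 11 bases gave 0.523%, 0.537%, 0.469% and 0.571%. From 1 to 12 bases, even spacings were thus more frequent than odd ones. A higher share at 2 bases than at 1 was not particular to the class, since shared regions had 2.16% at 2 bases and 0.275% at 1 base. Pairs were not counted apart from soft-masked bases.

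**Figure D2:**
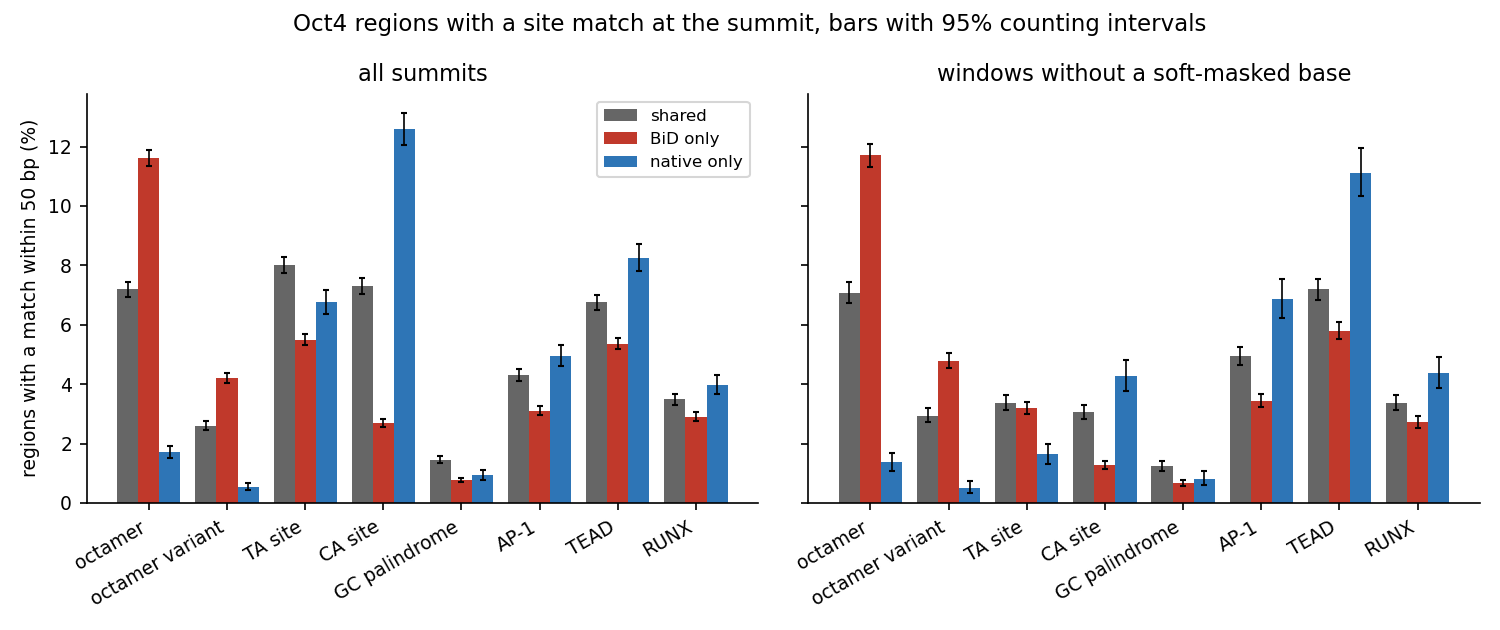
Share of regions (y axis, %) with at least 1 match to each site (x axis) within 50 bp of the summit, for all windows (left) and for windows without a soft-masked base (right), with bars per class and 95% counting intervals. The octamer bar of Oct4BiD-only regions is at 11.6% on the left and 11.7% on the right, while the CA site bar of native-only regions is at 12.6% on the left and 4.27% on the right.

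Sites of other factors were then counted. AP-1 factors, dimers of the FOS and JUN families that are abundant in fibroblasts, bind TGAGTCA or TGACTCA, which was found in 4.96% of native-only, 4.31% of shared and 3.10% of Oct4BiD-only regions. The log2 ratio of enrichment was -0.59 ± 0.095, and -0.94 ± 0.14 without soft-masked bases. TEAD sites (CATTCCA or CATTCCT) and RUNX sites (AACCACA) took the same order, with 8.25%, 6.76% and 5.35% for TEAD and 3.97%, 3.48% and 2.90% for RUNX. The SOX site CCATTGTT, the NANOG site GCCATTA and the NR5A site YCAAGGYCA (Y for C or T) had enrichments of at most 1.26 in each class. The KLF site GGGTGTGGC was found in at most 0.333% of a class, with enrichments of 1.42 in shared, 1.06 in Oct4BiD-only and 2.09 in native-only regions. The 6-base SOX core CATTGT 1 base from an octamer, the arrangement of composite Oct4-Sox2 sites, was found in 3 shared, 3 Oct4BiD-only and 0 native-only regions. Only exact matches of both parts were counted. Composite sites with a mismatch are left out, so these counts do not give how frequent such sites were.

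These ATGC sites set both Oct4 libraries apart from the other 6 libraries of the series. The octamer was found at 9.72% of all Oct4BiD summits and 4.17% of all native Oct4 summits, with enrichments of 15.4 and 6.15, while its enrichment in the Nanog, Sox2 and Nr5a2 libraries of either form was between 0.656 and 1.27. The CA site was found at 8.40% of native Oct4 and 4.65% of Oct4BiD summits, with an enrichment of at most 0.864 in the other libraries. The palindrome was as frequent in one Oct4 list as in the other, with 1.07% of native Oct4 and 1.06% of Oct4BiD summits. Since neither library had a peak on Pou5f1, the labels could not be checked at the gene of the tagged factor, and the octamer enrichment is the measurement here that bears on them. It does not check which list is that of the fusion.

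The classes also differed in rank. The peak score is 10 times the negative log10 of the caller's p-value and is used within a list. Shared regions had a median percentile of 70.2 in the Oct4BiD list and 59.5 in the native list, Oct4BiD-only regions one of 36.9 and native-only regions one of 29.2. Of the regions in the lowest 10% of the Oct4BiD list by score 17.2% were shared, and of those in the highest 10%, 84.1%. In the native list the shares were 48.7% and 97.4%. Median summit heights were 26 tags (Oct4BiD) and 18 tags (native) in shared regions, 16 tags in Oct4BiD-only and 14 tags in native-only regions. The highest scores of single-form regions were 1218.54 for Oct4BiD and 616.43 for the native form. At the other end, both classes reached down to the score of 50 at which a peak is called, so regions just below it in the other list count as single-form. The nearest native peak lay at a median of 12.1 kb from an Oct4BiD-only region, and within 1 kb of 5.46% of them. The nearest Oct4BiD peak lay at a median of 7.84 kb from a native-only region, and within 1 kb of 9.71% of them.

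**Figure D3:**
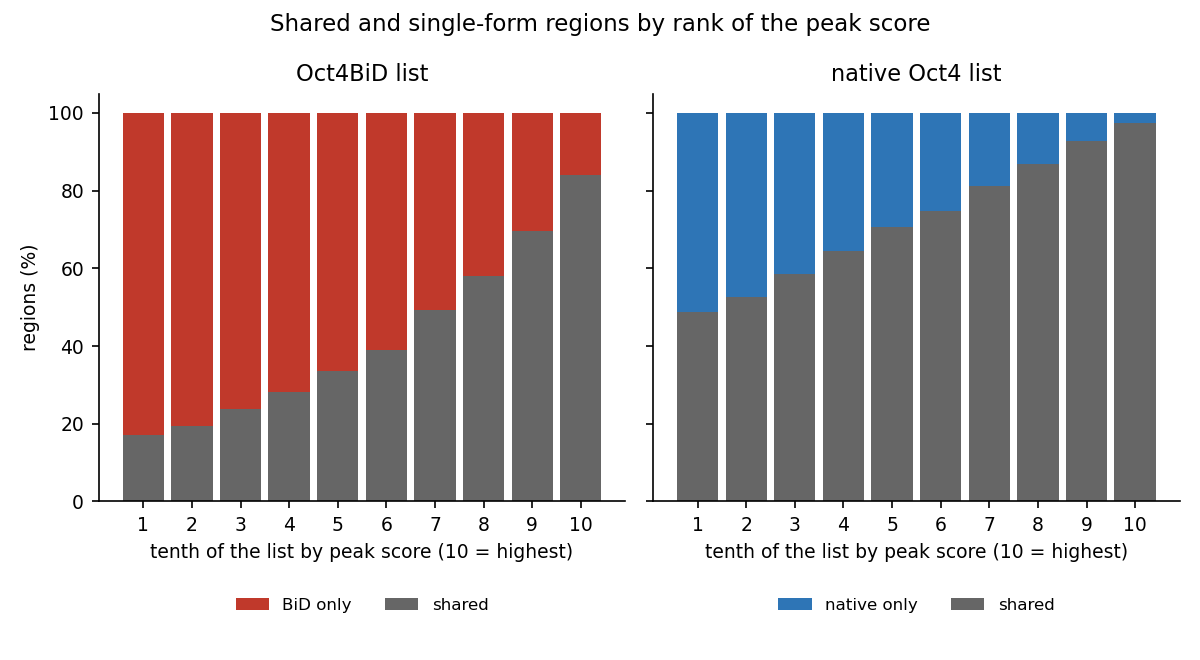
Share of regions (y axis, %) that are shared (grey) or single-form (coloured) in each 10% of a peak list by score (x axis, 10 the highest), for the Oct4BiD list (left) and the native Oct4 list (right). The shared part rises from 17.2% to 84.1% on the left and from 48.7% to 97.4% on the right.

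Within shared regions the forms ranked sites differently. Across the 39604 shared regions, which are not independent replicates, Spearman's correlation of the 2 scores was 0.462. The summits of both forms lay within 100 bp of each other in 73.9% of shared regions, at a median distance of 45 bp. The summit was higher for Oct4BiD in 70.3% of shared regions and for native Oct4 in 26.1%, in tags that are not scaled to depth. When shared regions were ordered by the percentile in the Oct4BiD list minus that in the native list, the 20% ranked most in favour of the native form held the octamer in 3.31% and the CA site in 12.0%. The 20% ranked most in favour of Oct4BiD held them in 11.4% and 4.24%. The order of the classes for these sites was thus also found among regions called for both forms. AP-1 sites went from 5.25% to 3.27% between the same groups. Shared regions were placed by the Oct4BiD summit, and at the native summit the octamer share was 5.11% and the CA share 6.90%.

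The octamer share also followed the score. In Oct4BiD-only regions it was 8.55% in the lowest 20% of the list and 21.6% in the highest, and in shared regions it was 2.96% and 11.4%. In native-only regions it was 1.72% and 0.936%, the latter among 534 regions with an interval of 0.305 to 2.17%. The CA site was most frequent in native-only regions of the second-highest 20%, with 18.6%, against 10.1% in the lowest. Shared regions were ranked by the Oct4BiD score, which is another ranking, and there the share was 11.3% in the lowest 20% and 5.82% in the highest.

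Position relative to genes was compared next. A region counted as a promoter region when the nearest start site of a transcript was at most 2 kb from its summit, which left out 9 shared, 2 Oct4BiD-only and 7 native-only regions on unplaced scaffolds. By this definition 24.8% of shared regions (24.3 to 25.2%), 17.3% of Oct4BiD-only regions (16.9 to 17.6%) and 9.93% of native-only regions (9.45 to 10.4%) were promoter regions, against 10.7% of all genome positions. Within 500 bp the shares were 16.9%, 8.23% and 3.19%, against 3.16% of genome positions. Native-only regions were therefore no more frequent at start sites than positions of the genome are. The difference in promoter share between Oct4BiD-only and native-only regions was 7.33 ± 0.295 percentage points (counting SE).

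The size of this difference depended on how the classes were made. It was 5.27 points when as many Oct4BiD as native peaks were used, 4.67 points with the 20000 highest-scoring peaks of each list and 11.1 points for peaks with a score of at least 100. It was 1.42 points when regions counted as shared only where the summits lay within 100 bp. In the highest 20% of each list, 12.5% of Oct4BiD-only and 6.18% of native-only regions were promoter regions.

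**Figure D4:**
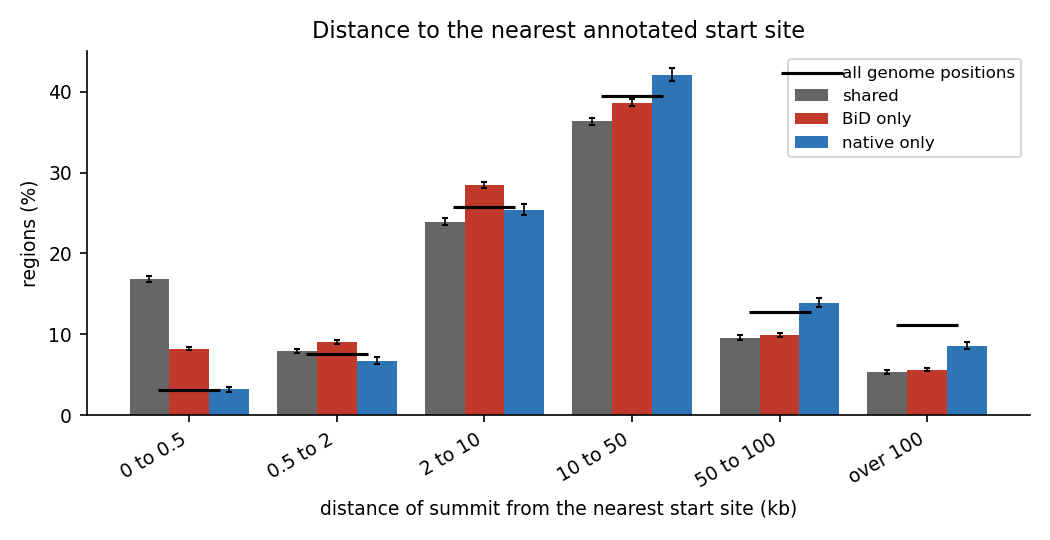
Share of regions (y axis, %) by distance of the summit from the nearest annotated start site (x axis, kb), with bars per class, 95% counting intervals and a black line for the share of all genome positions. Within 500 bp the bars are at 16.9% for shared, 8.23% for Oct4BiD-only and 3.19% for native-only regions, and the line is at 3.16%.

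Most regions of each class lay away from start sites. The median distance was 10.6 kb for shared, 11.9 kb for Oct4BiD-only and 17.8 kb for native-only regions. Introns held 48.3%, 51.01% and 49.3% of their summits, and intergenic sequence 43.2%, 41.9% and 47.1%. The mean number of CpG dinucleotides in the summit window was 2.07 in shared, 1.35 in Oct4BiD-only and 0.939 in native-only regions, and the mean GC content 44.0%, 41.8% and 42.4%. Within Oct4BiD-only regions the octamer was found in 8.03% of promoter regions and in 12.3% of the others, with like enrichments over the flanks of 19.0 and 18.4. Among 27025 RefSeq promoter sequences of GRCm38, from 250 bases before to 50 bases after the start, 1.75% held an octamer, 1.75% of the 3610 with an Oct4BiD summit only and 1.70% of the 7279 with a summit of both forms.

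Counted by gene, 8237 of 21911 protein-coding genes (37.6%) had a promoter summit of both forms, 4023 (18.4%) one of Oct4BiD only and 311 (1.42%) one of native Oct4 only. Of 35 genes of pluripotency regulators, 9 had a promoter summit of both forms, 8 one of Oct4BiD only and 0 one of native Oct4 only. Their nearest regions were 27 shared, 34 Oct4BiD-only and 5 native-only, or 51.5% Oct4BiD only against 49.9% of all regions.

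Among the genes with a promoter summit of Oct4BiD only were Sox2, the partner of Oct4 on composite sites, Sall4, a zinc finger factor of pluripotent cells, Prdm14, Mycn, Lefty2 and Rif1. At Sox2 the Oct4BiD-only region (chr3:34649442-34650239) had a score of 164.43 and a height of 31 tags and lay 0.502 kb from the start site, and Sox2BiD had a peak there as well. At Sall4 the Oct4BiD-only region at the start site scored 130.04, and the gene had in all 2 regions of each class, the shared ones with scores of 104.85 and 76.58 for Oct4BiD and of 137.88 and 95.9 for native Oct4. Rif1, which acts in DNA replication timing and telomere biology, had 3 Oct4BiD-only regions and no other.

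Nanog had 2 Oct4BiD-only regions, with scores of 168.72 and 163.81. The first, 2.23 kb from the nearest start site in an intron, had no peak in another library, and the second, on a coding exon, overlapped peaks of native Nanog and NanogBiD. Delivered Nanog vectors also carry coding sequence, and whether this peak came from the gene or from a vector was not tested. Pou5f1 had 1 region nearby, an Oct4BiD-only region 5.08 kb from the nearest start site with a score of 76.42, below the list's median of 135.005. Esrrb, a nuclear receptor of the pluripotency network, had 3 Oct4BiD-only regions with scores of 63.7 to 74.29 and 1 shared region, 30.005 kb from its nearest start, with scores of 193.13 and 63.64.

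Other regulators were called in both lists. Klf4, a Krüppel-like reprogramming factor, had 2 shared regions and no other, both with peaks in all 6 libraries of the other factors, and scores of 176.96 and 214.29 in Oct4BiD and of 221.15 and 254.42 in native Oct4. Tdgf1, a co-receptor of Nodal signalling, had 1 shared region 0.485 kb from its start, with scores of 815.33 and 559.91. Jarid2, a cofactor of Polycomb repressive complex 2, had 5 shared and 8 Oct4BiD-only regions. Zfp42 had 2 shared regions, 24.2 and 50.99 kb from its nearest start, and Dppa3 3 shared regions. No region had Dppa2, Dppa4, Dppa5a, Fgf4, Lin28a, Zfp296, Tcl1, Dnmt3l or Otx2 as its nearest gene. The 9 genes that the study names as targets of its Nanog fusion, a list chosen by the study, had 5 shared, 7 Oct4BiD-only and 2 native-only regions (35.7%, 50% and 14.3%, against 36.5%, 49.9% and 13.6% of all regions), and Mir302a, Dppa5a, Sox15 and Foxb1 had none.

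Fibroblast and mesenchymal genes, the program of the starting cells, had most regions of the lists, with 66 shared, 81 Oct4BiD-only and 15 native-only regions. Their 50% of Oct4BiD-only regions stands beside 49.9% of all regions. Promoter summits of both forms stood at 18 of 25 genes, beside 37.6% of all protein-coding genes, among them Col1a1, Col3a1 and Fn1 of the extracellular matrix and Twist1, Snai2 and Zeb2, regulators of the mesenchymal state. Zeb1 and Zeb2 had 10 Oct4BiD-only regions each, with 0 and 1 native-only regions, and Cdh2, which encodes N-cadherin, had 13 and 1. Prrx1 held a shared region with scores of 1194.08 and 576.64, 24.6 kb from its start. Epithelial genes, which rise when MEFs turn epithelial early in reprogramming, had 12 shared, 13 Oct4BiD-only and 1 native-only regions, again 50% Oct4BiD only, and none of the 20 had a promoter summit of both forms, which 37.6% of all protein-coding genes had. Cdh1, the gene of E-cadherin, had 2 shared and 1 Oct4BiD-only regions and none within 2 kb of a start site. Grhl2 had an Oct4BiD-only region 0.120 kb from a start site, with a score of 278.71.

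Genes of the AP-1 family had 17 shared, 13 Oct4BiD-only and 4 native-only regions, or 50% shared against 36.5% of all regions, and promoter summits of both forms at 10 of 14 genes, beside 37.6% of all protein-coding genes. Fos had 4 shared and 2 native-only regions and no Oct4BiD-only region. BAF subunits, the partners of the BiD domain, had 26 shared, 36 Oct4BiD-only and 4 native-only regions, or 54.5% Oct4BiD only against 49.9% of all regions. Of these 21 genes, 13 had a promoter summit of both forms and 6 one of Oct4BiD only (37.6% and 18.4% of all protein-coding genes), the latter including Arid1a and Smarcb1. Smarca4, the gene of BRG1, had 2 shared regions and no other.

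Neural regulators had the highest share of Oct4BiD-only regions among the lists, 26 of 43 (60.5%, against 49.9% of all regions), beside 11 shared and 6 native-only regions. Pax3, a paired-box factor of the neural tube and neural crest, had 6 Oct4BiD-only and 1 native-only regions, and Neurog2, a proneural factor, 4 Oct4BiD-only regions and no other, and Sim1 had 5 Oct4BiD-only regions, so these 3 genes held most of the list's. Myt1l was the only gene of the lists with a promoter summit of native Oct4 only. Trophoblast and endoderm regulators had 15 shared, 21 Oct4BiD-only and 4 native-only regions (52.5% Oct4BiD only against 49.9%), with 6 shared and 6 Oct4BiD-only ones at Gata6.

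The POU family, whose members share Oct4's DNA-binding domains, had 14 shared, 23 Oct4BiD-only and 10 native-only regions, the highest native-only share of the lists (21.3% against 13.6% of all regions). At the octamer-binding factor genes Pou2f1, Pou2f2 and Pou2f3 both forms had promoter summits. Pou2f3 also held Oct4BiD-only regions with scores of 812.65 and 782.93 in its introns, and a shared region of Pou2f1 at a start site had scores of 1626.98 and 814.31. The SOX family had 25 shared, 32 Oct4BiD-only and 6 native-only regions, or 50.8% Oct4BiD only against 49.9% of all regions, and 20 of the 63 were at Sox6.

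The highest-scoring Oct4BiD-only region, with a score of 1218.54 and 71 tags, is the Shroom4 region shown above, and the next were in introns of Osmr (1147.85), the gene of the oncostatin M receptor, Frem1 (1057.81) and Vgll4 (1040.35), a cofactor of TEAD proteins, and 5.28 kb from the start of Ccs (1011.22). The 3 intronic regions had no peak in any library of the other factors. The highest-scoring native-only regions had scores of 533.02 to 616.43. They lay 0.855 kb from the start of Igsf11, nearest to the unnamed genes Gm36251, Gm13599 and Gm48710, and in an intron of Gabrb1, a GABA receptor subunit, with Gm38562 as the nearest start. The leading placed shared regions, by the mean of both percentiles, were those at Ppp2r3d, Prrc2c, Fbxo47, Arfgef1 and Cd47, with scores of 1201.87 to 1385.35 in Oct4BiD and 1101.83 to 1584.24 in native Oct4.

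The genes nearest to most single-form regions were led by long ones. Pde4d, a cAMP phosphodiesterase gene of 1504 kb, had 42 Oct4BiD-only, 42 shared and 14 native-only regions. Rbfox1, which encodes an RNA-binding splicing regulator over 1526 kb, had 31, 17 and 23. Smyd3 had 30 Oct4BiD-only regions, Prkg1 28, Cdkal1, Mast4 and Rbms3 24 each, and Ccser1, Foxp1 and Magi1 23 each. For native-only regions Tenm2 followed with 12, Pcdh15 and Rora with 10 each, and Arhgef28, Cdh4, Csmd1, Gm37068 and Prkg1 with 9 each. Gm37068 spans only 25.7 kb. Cdh4, which encodes R-cadherin, had 9 native-only regions and 1 Oct4BiD-only region, while Arhgef28 had 9 and 8 and Gm37068 9 and 7.

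On the autosomes Oct4BiD-only regions made up between 48.0% and 52.3% of the regions of a chromosome. On chromosome X they made up 60.9%, 1737 of 2851, and native-only regions 9.96%. Chromosome X held 2.74% of all Oct4BiD peaks (2.64 to 2.85%) and 2.05% of native Oct4 peaks (1.93 to 2.17%), while the other 6 lists ranged from 1.99% to 3.12%. The sex of the embryos behind each library is not given, and its part in this difference was not tested.

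The libraries of the other factors were not used to make the classes. In the Nanog, NanogBiD, Sox2, Sox2BiD, Nr5a2 and Nr5a2BiD libraries, shared regions had a peak in 41.9%, 40.8%, 23.9%, 40.4%, 31.4% and 29.6% of cases. Oct4BiD-only regions had one in 17.2%, 20.2%, 8.07%, 20.8%, 17.1% and 13.6%, and native-only regions in 22.8%, 18.9%, 14.5%, 20.7%, 13.2% and 12.5%. Shared regions were thus the most often called in each of the 6 libraries. They were also the widest, with a median of 1097 bp against 715 bp for Oct4BiD-only and 652 bp for native-only regions. An overlap of 1 bp counted as presence, and the part of width in this order was not tested. A peak in none of the 6 was found for 39.0% of shared, 59.9% of Oct4BiD-only and 60.8% of native-only regions, and a peak in all 6 for 10.5%, 1.13% and 2.33%.

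Between the single-form classes the order differed by factor. With the 2 libraries of a factor averaged, Oct4BiD-only regions were called less often than native-only regions by 2.15 percentage points for Nanog (a difference of -2.15) and by 3.12 for Sox2 (-3.12), and more often by 2.52 for Nr5a2. The mean was -0.916 points, and flipping the signs of the 3 factors in an exact permutation test gave p = 0.75 (two-sided, where the smallest possible p is 0.25, so 0.05 could not be reached). Oct4BiD-only regions were called in the BiD library of another factor more often than in its native library by 3.00 points for Nanog and 12.8 points for Sox2, and for Nr5a2 the difference was -3.50 points (mean 4.09, exact permutation p = 0.75). In native-only regions the same differences were -3.84, 6.20 and -0.727 points (mean 0.545, exact permutation p = 1). The Sox2BiD list is the longest of the series with 120594 peaks and the Sox2 list held 58162. With the 20000 highest-scoring peaks of each other library, the mean in Oct4BiD-only regions was 0.511 points.

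**Figure D5:**
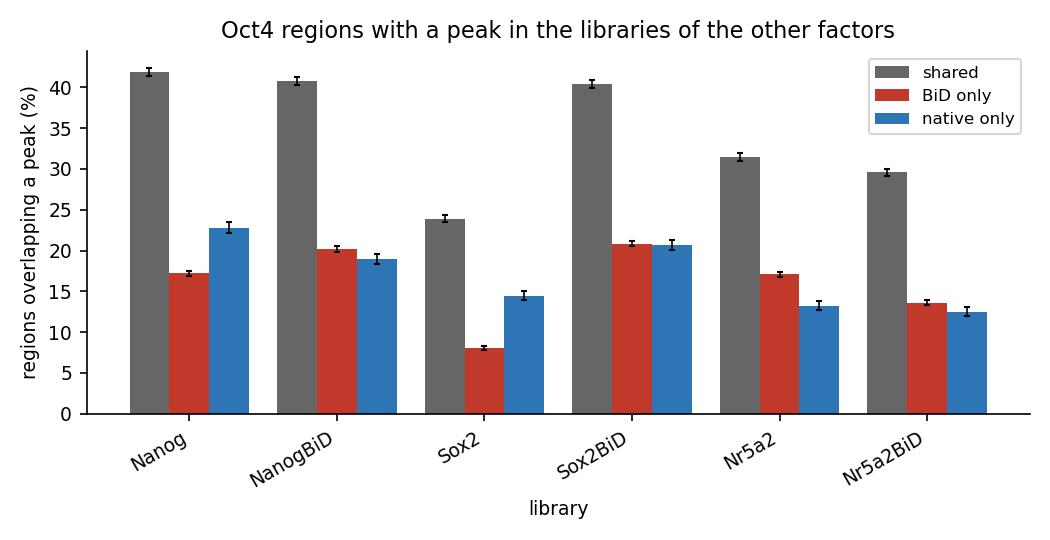
Share of Oct4 regions (y axis, %) that overlap a peak of each library of the other factors (x axis), with bars per class and 95% counting intervals. Shared regions have the highest bar in each library, from 23.9% in Sox2 to 41.9% in Nanog, and single-form regions lie between 8.07% and 22.8%.

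The sites moved with presence in the other libraries. Oct4BiD-only regions with no peak in the other 6 libraries held the octamer in 13.8% (13.4 to 14.1%), those called in 1 to 3 of them in 9.56%, and those called in 4 to 6 of them in 4.43% (3.88 to 5.04%). Native-only regions held the CA site in 16.2%, 8.56% and 2.73% of the same groups. The AP-1 site took the opposite course, with 2.67%, 6.81% and 12.8% of native-only regions and 2.38%, 3.80% and 5.39% of Oct4BiD-only regions. Regions called in Oct4 libraries alone were thus the ones richest in ATGC sites, and regions called for most factors the ones richest in AP-1 sites.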

How the data were processed

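Flag CUT&Tag peak lists of 8 mouse libraries were used, 1 per group, of which the Oct4BiD and native Oct4 lists define the regions. Read trimming was done with Trim Galore 0.6.4 and mapping to mm10 with Bowtie2 2.4.5. SAMtools 1.16.1 served to discard repetitive, poorly mapped and mitochondrial reads, and MACS 1.4.2 called peaks with 1 tag kept per position and no control library named. The deposited score of a peak is 10 times −log10 of the authors' MACS p-value, with a lowest value of 50. Summit heights are the deposited signal, a number of tags at the summit that the authors did not scale to depth, so heights and scores of different libraries are not on 1 scale. The methods say that replicates were merged, whereas the reporting summary says that the experiment was done once.

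Regions, shares and site matches came from scripts in Python 3.11.15 (pandas 2.3.3, scipy 1.17.1, numpy 2.4.6, matplotlib 3.10.9 for figures), with GRCm38 and the GENCODE M21 annotation. Peaks overlapping by at least 1 bp were merged. A shared region was placed by its Oct4BiD summit. Sites were counted on both strands within 50 bp of the summit and set against flanks 500 bp to either side. Site counting was tested on simulated sequence. Intervals are exact (Clopper-Pearson) 95% intervals and cover counting error over regions only. Log2 ratios carry 1 counting SE. With 1 library per form, no test between the forms was possible, and the comparison with other factors used an exact two-sided permutation test that flips the signs of 3 factors. The genes named are those of 10 lists, those nearest to the 5 leading regions of each class and the 10 nearest to most single-form regions. The members, lists and tests were chosen with earlier results of these data known. Alternatives varied the overlap, peak number, score, site window, promoter distance and factors. The values of 1 listed gene and 1 sequence are not reported here.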

Additional observations from a re-analysis of the deposited data

Results flagged for a closer look

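Differences in promoter share and in chromosome X share between the single-form classes took the opposite sign in another factor. The promoter share of Oct4BiD-only regions was 7.33 percentage points above that of native-only regions, and the same difference was -6.89 points for Nr5a2, where the fusion is the library with fewer peaks, while it was 6.81 points for Nanog and 10.4 points for Sox2. The share of regions on chromosome X was 1.28 points higher in Oct4BiD-only than in native-only regions, whereas the difference was -0.0540 points for Nanog and -0.581 points for Sox2, and 0.329 points for Nr5a2. With 1 library per form, neither difference between factors was tested.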

How the results depend on the processing

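Of 60 values under alternatives, 36 were counted as the same as the main value, 22 moved and 2 took the opposite sign. Class counts were taken as the same within a fixed ratio of the main count. Values of presence in the other factors were taken as the same on their sign alone, whatever their size. Among these was a mean difference of -5.86 points with summits within 100 bp, beside -0.916 points in the main setting. Oct4BiD-only regions numbered 23889 with as many Oct4BiD as native peaks and 9590 with the 20000 highest-scoring peaks of each list. Native-only regions numbered 25321 with summits within 100 bp, 23512 with equal numbers, 9577 with the 20000 highest and 7164 at a score of at least 100. Shared regions numbered 10409 with the 20000 highest and 21911 at that score. The promoter difference was 1.42 points with summits within 100 bp, 5.27 with equal numbers, 4.67 with the 20000 highest, 11.1 at a score of at least 100, and 5.04 and 8.56 with promoters of 500 and 5000 bp. The log2 ratio of the octamer was 2.22 with the 20000 highest, and that of AP-1 -0.87 there and -0.94 without soft-masked bases. For the CA site it was -1.01 with summits within 100 bp, -1.29 with the 20000 highest and -0.91 without soft-masked bases. At the native summit, shared regions held the octamer in 5.11% and the CA site in 6.90%. The mean difference in presence was 1.42 points (exact permutation p = 0.75) at a score of at least 100 and 0.184 points (p = 1, exact permutation) without Sox2. Its p ranged from 0.25 to 1 over the alternatives, and a design that cannot reach 0.05 says nothing about stability. The causes of these changes were not tested.

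No paired analysis was possible because each group has 1 library. The peak lists do not give depth and no control library is named, so regions just under the threshold in a list count as not called there, and background at open chromatin cannot be told apart from binding.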
